A study of Mus musculus with 24 samples.

Results

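The genes described here are the ligands and receptors of the FGF, PDGF, VEGF, HGF and angiopoietin families in NIH 3T3 cells. They were chosen by symbol alone: all Fgf genes other than receptors, the FGF receptors with Fgfrl1, Pdgfa to Pdgfd, the PDGF receptors with Pdgfrl, Vegfa to Vegfd, Pgf, Flt1, Flt4, Kdr, Hgf, Met, the angiopoietins and Tek, kept where the mean count over all libraries was at least 5. Of 48 genes with such symbols, 27 were kept (17 of the ligand families and 10 receptors), among them Fgf11 and Fgf14, which carry the FGF name but encode intracellular factors that are not receptor ligands. The same limit was passed by 14361 genes. Of the other 21, 9 had no read in any library and 12 had a mean below the limit. Closest to the limit, Fgf18 (mean 5 counts) and Fgf11 (5.83) lay just inside, and Pdgfb (3.46) and Pgf (3.42) just outside.

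NIH 3T3 is an immortalised mouse embryo fibroblast line. Pooled stable lines were made with a pBabeNeo retrovirus and selection with G418, each in triplicate, so that a line was not 1 clone, and polyA RNA was sequenced in 24 libraries, 3 in each of 8 groups. All groups therefore carried the vector and its resistance gene and were grown in bovine calf serum. EV held the empty vector and was collected 48 h after reaching confluence. TAZ4SA carried TAZ with 4 and YAP5SA carried YAP with 5 of its LATS kinase serines changed to alanine, TAZ-CAMTA1 and YAP-TFE3 carried the gene fusions of epithelioid hemangioendothelioma, a vascular sarcoma, and TFE3 carried full-length TFE3. TAZ4SA, YAP5SA, YAP-TFE3 and TFE3 were collected at confluence as EV was. For TAZ-CAMTA1 the sources differ: the labels except CAMTA1 alone from confluence, while the methods have all lines that contain CAMTA1 collected before it. CAMTA1 carried full-length CAMTA1 and was collected before confluence, and EVsub was the empty vector also taken before confluence. The constructs are driven by the viral vector and carry Flag tags, so that their levels are not those of an endogenous gene. TAZ4SA and YAP5SA are called the serine mutants below. CAMTA1 was compared with EVsub, and the other transduced groups and EVsub with EV. For TAZ-CAMTA1 the comparison with EVsub is given too, since cell density and the fusion cannot be told apart in the comparison with EV if it was collected before confluence. The 6 comparisons with EV share its 3 libraries.

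The ligands of these families bind receptors that span the membrane and carry a tyrosine kinase inside the cell, and binding pairs the receptors and starts RAS-MAPK and PI3K signalling. Fibroblasts use FGF and PDGF receptors for growth and migration, while they release HGF, VEGF and angiopoietins that act on epithelial and endothelial cells. VEGF receptors and Tek (also called Tie2) are known chiefly from endothelium, the lineage that epithelioid hemangioendothelioma resembles.

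The windows upstream of 5 members are printed: the receptors known from endothelium (Kdr, Flt1 and Tek), the ligand with the largest fold change against EV (Fgf21), and a ligand that was higher than EV in 5 groups (Pdgfc). Each window holds the 250 bases before the start site given by RefSeq on GRCm38.p6, written 5′ to 3′ on the strand of the gene in lower case. Capitals mark matches to the core of the TEAD element (GGAATG), the AP-1 element (TGANTCA) or the E-box that TFE3 binds (CACGTG), each searched on both strands, and no matches of different motifs overlapped in a member window. The windows lie at chr5:75978456-75978705 on the minus strand, chr5:147726012-147726261 on the minus strand, chr4:94739039-94739288 on the plus strand, chr3:81036166-81036415 on the plus strand and chr7:45615491-45615740 on the minus strand.
Kdr: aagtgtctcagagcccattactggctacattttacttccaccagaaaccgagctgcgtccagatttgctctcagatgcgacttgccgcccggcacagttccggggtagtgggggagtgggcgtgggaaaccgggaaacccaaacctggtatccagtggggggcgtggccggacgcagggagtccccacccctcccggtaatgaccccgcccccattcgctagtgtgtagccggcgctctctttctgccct
Flt1: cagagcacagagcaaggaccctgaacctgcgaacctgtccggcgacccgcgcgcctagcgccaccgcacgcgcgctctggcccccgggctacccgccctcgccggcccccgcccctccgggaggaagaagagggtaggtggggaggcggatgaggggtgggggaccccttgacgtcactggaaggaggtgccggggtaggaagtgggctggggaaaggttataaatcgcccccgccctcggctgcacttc
Tek: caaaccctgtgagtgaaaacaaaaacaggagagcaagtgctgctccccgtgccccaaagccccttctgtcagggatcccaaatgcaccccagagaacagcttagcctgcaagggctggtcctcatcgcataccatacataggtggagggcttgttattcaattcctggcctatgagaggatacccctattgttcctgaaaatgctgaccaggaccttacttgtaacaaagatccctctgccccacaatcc
Pdgfc: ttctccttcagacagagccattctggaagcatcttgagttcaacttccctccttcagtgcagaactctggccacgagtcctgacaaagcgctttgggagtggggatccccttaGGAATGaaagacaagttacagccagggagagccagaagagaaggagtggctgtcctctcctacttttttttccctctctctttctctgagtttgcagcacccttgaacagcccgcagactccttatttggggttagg
Fgf21: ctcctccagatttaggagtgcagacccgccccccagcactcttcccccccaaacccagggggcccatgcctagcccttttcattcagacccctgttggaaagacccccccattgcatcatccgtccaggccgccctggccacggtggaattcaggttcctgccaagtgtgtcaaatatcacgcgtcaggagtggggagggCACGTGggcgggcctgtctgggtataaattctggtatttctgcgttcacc
The Pdgfc window held a TEAD core 137 bases upstream of the start, and the Fgf21 window an E-box 50 bases upstream. None of the 3 motifs was found in the windows of Kdr, Flt1 or Tek. With the 50 bases after the start included, 22 members had 25 promoters in the RefSeq table, and a TEAD core was in 3 of the 25 (Fgf11, Fgf14 and Pdgfc) against 14.7% of all 32851 promoters. An AP-1 core was in 1 of the 25 (Met) against 7.81%, and the E-box in 4 (Fgf21, Fgfr2, Fgfrl1 and Met) against 7.15%. A match describes letters in the window and not an occupied site.

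Levels below are CPM, counts scaled to a common library size after TMM adjustment of the sizes, and differences are log2 fold changes ± SE from edgeR's quasi-likelihood fit over all groups, with 3 libraries a group. A gene was called where its p adjusted by the Benjamini-Hochberg method over 14361 genes was under 0.05. Libraries held 16471181 to 30132586 counts, with a median of 22298975. The correlation of log2 CPM with the other libraries of the same group averaged at least 0.974 in every library, lowest in TAZ4SA replicate 3, and EVsub replicate 3 was closer to EV (mean r = 0.983) than the other EVsub libraries (0.968 and 0.969). All 10 fibroblast markers averaged at least 5 counts in every group (summed 20944 to 54261 CPM). The 10 endothelial markers summed to 2.82 to 4.85 CPM in EV, 9.34 to 13.8 in YAP-TFE3, 8.36 to 9.41 in TFE3 and 3.06 to 7.49 in the rest, mostly Ramp2 and Vwf, and Sox17 was at 0 throughout. In TAZ-CAMTA1 the mean of Cdh5 was 1.67 CPM, against 0.01475 in EV, and lay above that of Vwf (0.705). The 7 epithelial markers summed to at most 1.15 CPM, with Epcam at 0. The 7 haematopoietic markers summed to 6.29 to 8.02 CPM in EV, 20.6 to 70.4 in TAZ4SA and 86.1 to 136 in YAP5SA, carried by Cd68 and Csf1r, while Adgre1 was at 0 in every library and Ptprc never exceeded 4 counts. The part of these markers in the results was not tested. Mouse Camta1 was 9.23 to 11.2 CPM in CAMTA1 against 3.95 to 5.60 in EVsub, while mouse Wwtr1 (TAZ) was 152 to 171 CPM in TAZ4SA, 139 to 158 in TAZ-CAMTA1 and 130 to 136 in EV. Mouse Yap1 was lower in YAP5SA (91.6 to 111 CPM) than in EV (170 to 193), and mouse Tfe3 lower in TFE3 (68.1 to 74.4) than in EV (84.6 to 93.2). Ccn2, a well-known TAZ and YAP target, was 14.6 to 19.9 CPM in EV, 174 to 437 in TAZ4SA, 174 to 426 in YAP5SA, 29.9 to 39.8 in TAZ-CAMTA1 and 33.1 to 39.5 in YAP-TFE3. In the groups taken before confluence it was 37.7 to 143 in EVsub and 159 to 294 in CAMTA1, so that empty vector cells also had more of it at lower density. The species of the transduced sequences is not given in the sources used here, so the counts of the mouse genes are a limited check of the labels.

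In the empty vector cells the PDGF and FGF receptors led the family. Per kb of annotated exon, Pdgfra (119 ± 1.76 CPM per kb, SD), Fgfr1 (112 ± 8.73) and Pdgfrb (104) stood highest, and their ranges overlapped. Vegfd (77.7) and Vegfb (67.0) followed as the most abundant ligands, above Fgf7 (39.5), whose range did not reach that of Vegfb. Pdgfrl (31.0), Met (28.1), Fgfrl1 (21.9), Vegfa (12.8), Fgfr2 (10.5), Angpt4 (8.75), Vegfc (7.99), Fgf10 (6.29), Pdgfa (5.43), Pdgfc (3.36), Hgf (2.48), Angpt2 (2.36), Fgf14 (2.32), Flt1 (1.35), Angpt1 (1.11) and Tek (0.647) came next. Fgf2 (0.121), Fgf21 (0.100), Fgf11 (0.0588), Fgf18 (0.0392) and Kdr (0.00830) were lowest. Neighbours in this order overlapped in their ranges except Vegfb and Fgf7, Met and Fgfrl1, Fgfrl1 and Vegfa, Vegfc and Fgf10, Fgf10 and Pdgfa, Pdgfa and Pdgfc, Fgf14 and Flt1, and Tek and Fgf2.

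**Figure D1:**
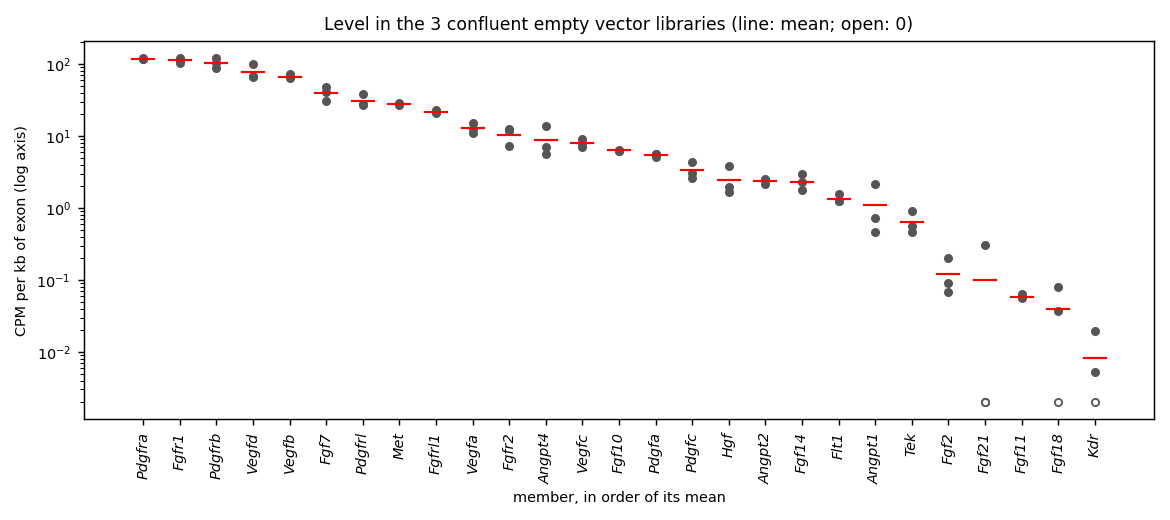
Levels of the 27 members in the 3 empty vector (EV) libraries, in CPM per kb of exon on a log axis, ordered by their mean. Points are libraries, open points stand for 0 counts, and lines mark the mean. Pdgfra, Fgfr1 and Pdgfrb have means above 100 CPM per kb, and Kdr lies below 0.1.

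In the serine mutants the members were more often lower than higher. In TAZ4SA, 9 of 27 were higher than in EV (33.3%, against 31.1% of all tested genes) and 13 were lower (48.1%, against 26.4%). In YAP5SA, 8 were higher (29.6%, against 36.3%) and 15 lower (55.6%, against 34.9%). The higher shares were thus near or under the background and the lower shares above it. The median log2 fold change of the members was -0.43 in TAZ4SA and -0.51 in YAP5SA, against 0.05 and 0.01 for all tested genes. Of the receptors, 3 were higher and 5 lower in TAZ4SA, 3 and 6 in YAP5SA, and of the ligand families 6 were higher and 8 lower in TAZ4SA, 5 and 9 in YAP5SA. Fgf18, which averaged 5 counts and passed the limit through the groups where it was high, is among those higher in TAZ4SA, YAP5SA, TAZ-CAMTA1 and YAP-TFE3. Without it 8 of 26 were higher in TAZ4SA, 7 in YAP5SA, 4 in TAZ-CAMTA1 and 5 in YAP-TFE3. Kdr and Fgf21 also passed the limit through the groups where they were high, and they stay in all counts of members called. Kdr was called higher in TAZ4SA, YAP5SA, YAP-TFE3 and TFE3, and Fgf21 in TAZ4SA, YAP5SA and TAZ-CAMTA1. Here and below, a share above that of all genes that holds Kdr, Fgf21 or Fgf18 is given as a value only.

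Against EV fewer members were called in the fusion groups, and those lower were a larger share than of all genes. Those higher included Fgf18 in both fusions, Fgf21 in TAZ-CAMTA1 and Kdr in YAP-TFE3. These passed the limit through the groups where they were high, so the higher shares are given as values only. In TAZ-CAMTA1, 5 members were higher than in EV (18.5%, against 12.5%) and 8 lower (29.6%, against 8.98%), with a median of 0.05 beside -0.0041 for all genes. In YAP-TFE3, 6 were higher (22.2%, against 10.6%) and 4 lower (14.8%, against 4.74%), with a median of 0.15 beside 0.00. These counts rested in part on few libraries. Without TAZ-CAMTA1 replicate 3 the count called fell to 7 from 13, and without YAP-TFE3 replicate 1 to 6 from 10. Calls over all genes fell too, to 1339 higher and 706 lower from 1799 and 1289 in TAZ-CAMTA1. In YAP-TFE3 they fell to 847 higher and 286 lower from 1523 and 680.

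The control mattered for TAZ-CAMTA1. Against EVsub, 10 members were higher (11.6% of all genes) and 3 lower (9.81%), and 4 of them (Fgf21, Met, Pdgfa and Pdgfrl) were called in the same direction as against EV. Their log2 fold changes against EVsub were 3.32 ± 0.77 (adjusted p = 0.00394), -0.70 ± 0.12 (adjusted p = 0.000180), 0.49 ± 0.11 (adjusted p = 0.00285) and 1.42 ± 0.22 (adjusted p = 5.12e-05). Pdgfc, higher than in EV, was lower than in EVsub (-0.43 ± 0.15, adjusted p = 0.0378). Tek (3.04 ± 0.45, adjusted p = 4.06e-05), Angpt4 (1.33 ± 0.38, adjusted p = 0.0144), Vegfd (0.95 ± 0.29, adjusted p = 0.0226), Fgf10 (0.61 ± 0.19, adjusted p = 0.0266), Fgf2 (1.47 ± 0.50, adjusted p = 0.0405), Kdr (2.57 ± 0.78, adjusted p = 0.0207) and Vegfc (0.38 ± 0.14, adjusted p = 0.0499) were higher and Flt1 (-0.63 ± 0.12, adjusted p = 0.000823) lower, none of them called against EV. The falls of Fgfr1, Fgfr2, Pdgfrb, Vegfb, Hgf, Angpt1 and Fgf14 against EV, and the rise of Fgf18, were not called against EVsub. Values for TAZ-CAMTA1 below are against EV unless another group is named, and hold for that control.

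In TFE3 and CAMTA1 few members were called, as were few of all genes. In TFE3, 3 members (Flt1, Kdr and Vegfb) were higher than in EV (11.1%, against 2.36% of all genes) and 0 lower (against 1.02%). There 5 had a log2 fold change below 0 at an unadjusted p under 0.05, and DESeq2 also called 0 lower. The count called was 1 without EV replicate 1 or any TFE3 replicate, and 8 (4 higher and 4 lower) when only these 2 groups were fitted. That fit also called more of all genes, 914 higher and 598 lower, against 339 and 146 in the main fit. In CAMTA1, 1 (Vegfa) was higher than in EVsub (3.70%, against 1.29%) and 0 lower (against 0.891%), with 4 below 0 at an unadjusted p under 0.05 and 0 by DESeq2. The count was 0 without any CAMTA1 replicate or EVsub replicate 2 and when only these groups were fitted, 2 without EVsub replicate 1 and 4 with no filter on low counts. Over all genes, 21 were higher and 1 lower when only these groups were fitted, against 185 and 128 in the main fit. With no filter they were 380 and 294. Before confluence, EVsub had 3 members higher than EV (11.1%, against 12.5% of all genes) and 7 lower (25.9%, against 9.59%). Those higher were Flt1, Pdgfa and Pdgfc, and those lower were Fgfr1, Fgfr2, Pdgfrb, Tek, Vegfb, Fgf14 and Angpt4.

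**Figure D2:**
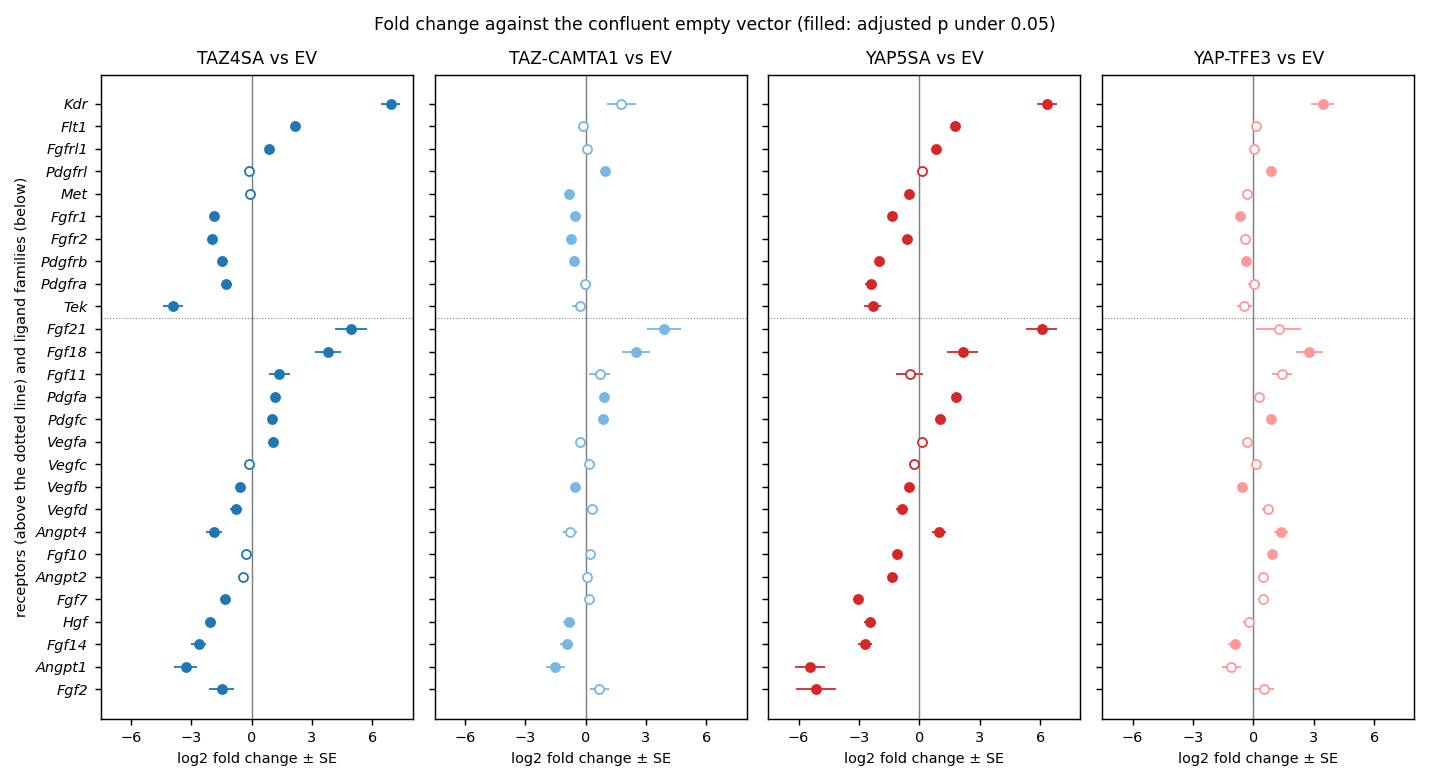
Log2 fold change of the 27 members against EV (x axis, 1 panel each for TAZ4SA, TAZ-CAMTA1, YAP5SA and YAP-TFE3), with SE bars, filled where called. Members are rows, receptors above the dotted line and ligand families below. Kdr has the highest value in TAZ4SA and YAP5SA, 6.91 and 6.33, and Angpt1, Tek, Fgf2 and Fgf7 are among the lowest.

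Both PDGF receptors with a kinase were lower in the serine mutants. Pdgfra, the receptor for PDGF-A and PDGF-C chains (ENSMUSG00000029231, chr5:75152292-75198215, plus strand), was at 1212, 1193 and 1176 CPM in EV and 544, 550.4 and 406 in TAZ4SA. It was at 156, 291 and 219.7 in YAP5SA. Neither range reached that of EV, with log2 fold changes of -1.26 ± 0.29 (adjusted p = 0.000721) in TAZ4SA and -2.43 ± 0.30 (adjusted p = 2.17e-07) in YAP5SA. The fusion libraries stayed in the range of EV or close to it, at 1328, 1026 and 1192 in TAZ-CAMTA1 and 1198, 1259.5 and 1221 in YAP-TFE3, with log2 fold changes of -0.01 ± 0.28 (adjusted p = 0.979) and 0.04 ± 0.28 (adjusted p = 0.954). TFE3 had 831, 823 and 822 CPM, below every EV library but not called (-0.53 ± 0.28, adjusted p = 0.414) other than under a fit of the compared groups alone (adjusted p = 0.00148). The sub-confluent libraries varied widely, 513, 563 and 1089 in EVsub and 224, 454 and 633 in CAMTA1, and EVsub against EV was -0.73 ± 0.28 (adjusted p = 0.0689), which became a call without EVsub replicate 3 (adjusted p = 0.00437), or with all libraries under no filter on low counts or DESeq2 (adjusted p from 0.005303 to 0.0373).

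Pdgfrb, the receptor for PDGF-B and PDGF-D (ENSMUSG00000024620), was lower than in EV in 5 groups. Its levels were 565, 484 and 656 CPM in EV, 219, 197 and 198 in TAZ4SA and 147, 139 and 141 in YAP5SA. The fusion groups lay between, 399.8, 401 and 359 in TAZ-CAMTA1 and 467, 405 and 450.2 in YAP-TFE3, and EVsub was at 319, 425 and 389. No library of these groups reached the lowest EV library. Pdgfrb fell in TAZ4SA (-1.47 ± 0.13, adjusted p = 3.69e-09), YAP5SA (-2.00 ± 0.13, adjusted p = 1.69e-11), TAZ-CAMTA1 (-0.56 ± 0.12, adjusted p = 0.00225) and EVsub (-0.59 ± 0.12, adjusted p = 0.00162). The small fall in YAP-TFE3 (-0.37 ± 0.12, adjusted p = 0.0459) was lost without EV replicate 1 or 3, or any YAP-TFE3 replicate (adjusted p from 0.0586 to 0.2803), or with all libraries under no filter on low counts, a replicate block or a fit of the compared groups alone (adjusted p from 0.0609 to 0.0875). Bulk RNA cannot tell fewer cells that express a gene from less RNA per cell, here or for any member.

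Pdgfrl (ENSMUSG00000031595, chr8:40926212-40990785, plus strand), a secreted protein that resembles the PDGF receptor but lacks a kinase, was higher than in EV in the fusion groups. It was at 84.1, 119 and 87.96 CPM in EV, 214, 184 and 172 in TAZ-CAMTA1 and 218, 138 and 176 in YAP-TFE3, with no overlap between EV and either fusion. Its log2 fold change was 0.97 ± 0.21 (adjusted p = 0.00207) in TAZ-CAMTA1 and 0.87 ± 0.21 (adjusted p = 0.00631) in YAP-TFE3. The YAP-TFE3 call was lost without YAP-TFE3 replicate 1 (adjusted p = 0.0832). In TAZ4SA (-0.14 ± 0.21, adjusted p = 0.584) and YAP5SA (0.13 ± 0.21, adjusted p = 0.593) it was not called.

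Fgfr1, the main FGF receptor of these cells (ENSMUSG00000031565, chr8:25513654-25575718, plus strand), was lower in all 4 TAZ and YAP groups. It was at 1087, 1032 and 1201 CPM in EV, 327, 359 and 230.03 in TAZ4SA and 399.6, 492 and 410.4 in YAP5SA. It was at 826, 777 and 712 in TAZ-CAMTA1, 620.2, 690.2 and 814 in YAP-TFE3 and 540.1, 685 and 722 in EVsub. All of these libraries lay below the lowest EV library, as did TFE3 at 949, 854 and 819 CPM and CAMTA1 at 578, 594 and 607. TFE3 was not called other than under a fit of the compared groups alone (log2 fold change -0.32, adjusted p = 0.0434). The log2 fold changes were -1.86 ± 0.15 (adjusted p = 1.95e-09) in TAZ4SA, -1.35 ± 0.15 (adjusted p = 5.1e-08) in YAP5SA, -0.52 ± 0.15 (adjusted p = 0.0135) in TAZ-CAMTA1, -0.64 ± 0.15 (adjusted p = 0.00367) in YAP-TFE3 and -0.77 ± 0.15 (adjusted p = 0.000761) in EVsub. The TAZ-CAMTA1 call was lost without EV replicate 3, or TAZ-CAMTA1 replicate 3 (adjusted p from 0.0698 to 0.0703).

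Fgfr2 (ENSMUSG00000030849, chr7:130162451-133123350, minus strand), another FGF receptor, lower per kb than Fgfr1 in EV, was at 121, 74.01 and 129.99 CPM in EV and 30.02, 34.5 and 19.6 in TAZ4SA. It was at 62.7, 86.2 and 62.98 in YAP5SA, 71.2, 67.1 and 58.8 in TAZ-CAMTA1 and 76.98, 78.7 and 89.00 in YAP-TFE3. EV replicate 2 was the lowest EV library, and only TAZ4SA, TAZ-CAMTA1, EVsub and CAMTA1 lay wholly below it. Fgfr2 fell in TAZ4SA (-1.96 ± 0.19, adjusted p = 2.12e-08), YAP5SA (-0.62 ± 0.18, adjusted p = 0.00435), TAZ-CAMTA1 (-0.72 ± 0.18, adjusted p = 0.005805) and EVsub (-0.75 ± 0.18, adjusted p = 0.00472), and the TAZ-CAMTA1 call was lost without EV replicate 3 (adjusted p = 0.0527). Its exons overlap Ctbp2 on the same strand, whose level was 31.6 CPM in EV and 34.7 in TAZ4SA.

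Fgfrl1 (ENSMUSG00000008090, chr5:108692382-108706924, plus strand), which binds FGFs but has no kinase domain, was higher in the serine mutants. It was at 60.4, 57.7 and 64.3 CPM in EV, 113, 134 and 88.8 in TAZ4SA and 108, 112 and 105 in YAP5SA, without overlap. The log2 fold changes were 0.88 ± 0.15 (adjusted p = 4.21e-05) and 0.83 ± 0.15 (adjusted p = 4.34e-05). TAZ-CAMTA1 (0.05 ± 0.15, adjusted p = 0.849) and YAP-TFE3 (0.01 ± 0.15, adjusted p = 0.977) were not called.

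**Figure D3:**
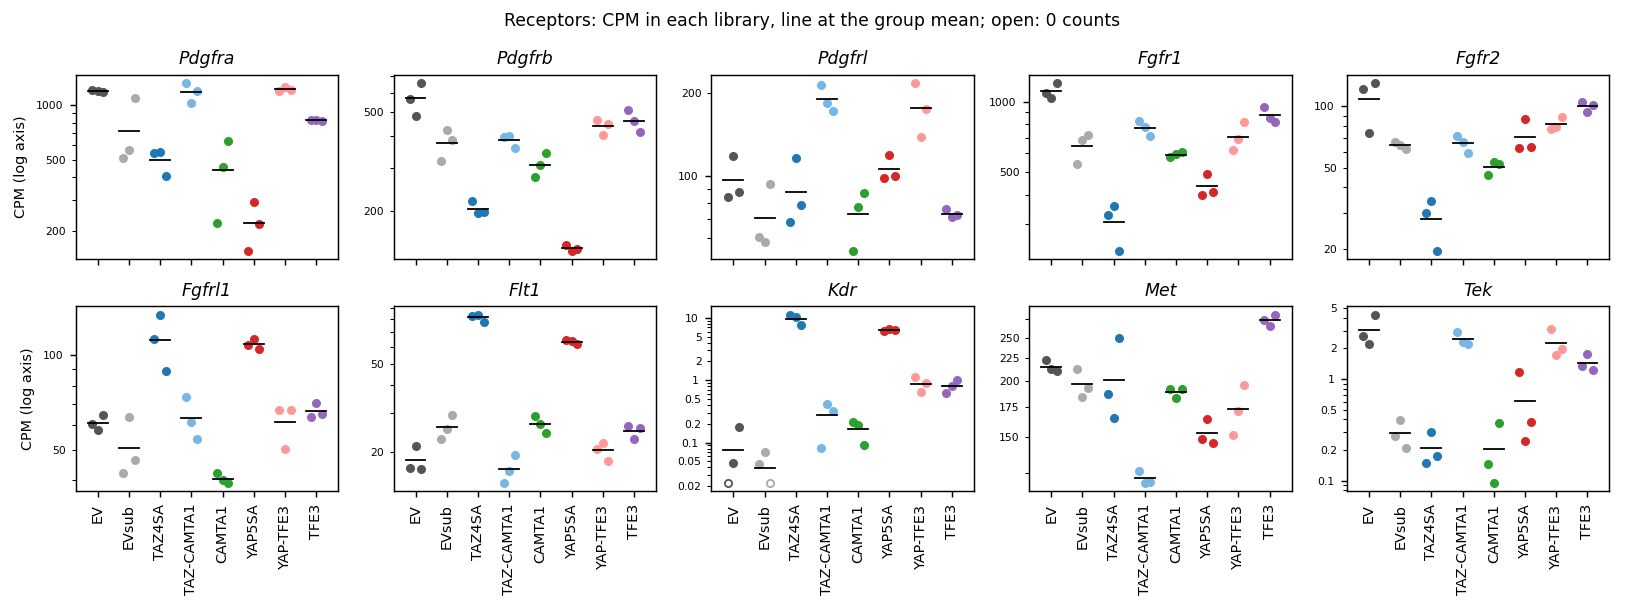
CPM of the 10 receptors in each of the 24 libraries by group, on log axes, with lines at the group means and open points for 0 counts. In TAZ4SA and YAP5SA, Flt1, Kdr and Fgfrl1 sit above EV, and Pdgfra, Pdgfrb, Fgfr1 and Tek below it.

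Flt1 and Kdr rose in the serine mutants. Flt1, VEGF receptor 1 (ENSMUSG00000029648, chr5:147561604-147726011, minus strand), was at 16.97, 21.2 and 16.6 CPM in EV, 82.95, 83.6 and 77.4 in TAZ4SA and 64.3, 63.4 and 61.5 in YAP5SA. All 6 serine mutant libraries were above every other library of the series. The log2 fold changes were 2.15 ± 0.13 (adjusted p = 1.75e-11) and 1.79 ± 0.12 (adjusted p = 5.48e-11), or 4.45-fold and 3.45-fold. In the fusion groups Flt1 was at 14.5, 16.4 and 19.4 CPM in TAZ-CAMTA1 and 20.7, 22.00 and 18.3 in YAP-TFE3, across the range of EV, with log2 fold changes of -0.12 ± 0.12 (adjusted p = 0.522) and 0.15 ± 0.12 (adjusted p = 0.4699). EVsub was slightly higher than EV (0.50 ± 0.12, adjusted p = 0.00543), a call lost under a fit of the compared groups alone (adjusted p = 0.0682). A rise in TFE3 (0.44 ± 0.12, adjusted p = 0.0481) was lost without EV replicate 1 or 3, or any TFE3 replicate (adjusted p from 0.0744 to 0.226), or with all libraries under no filter on low counts or a replicate block (adjusted p from 0.0637 to 0.0802).

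Kdr, VEGF receptor 2 and the main signalling receptor for VEGF-A (ENSMUSG00000062960, chr5:75932827-75978458, minus strand), was nearly absent from EV and was found at higher levels in the serine mutants. Its counts were 0, 1 and 4 in the EV libraries, 225, 135 and 173 in TAZ4SA and 121, 137 and 100 in YAP5SA, or 0 to 0.177, 7.61 to 11.2 and 6.21 to 6.72 CPM. From the summed counts, TAZ4SA was higher than EV by a ratio of 127 (exact 95% interval 54.3 to 394) and YAP5SA by 86.5 (exact 95% interval 36.7 to 268). These intervals cover counting error only, and the fitted values were 6.91 ± 0.48 (adjusted p = 1.79e-10) and 6.33 ± 0.48 (adjusted p = 1.96e-10). Smaller levels were found in YAP-TFE3 (counts 22, 19 and 21) and TFE3 (14, 19 and 29), all above every EV library, with log2 fold changes of 3.44 ± 0.58 (adjusted p = 0.0002103) and 3.37 ± 0.58 (adjusted p = 0.00179). TAZ-CAMTA1 had counts of 2, 9 and 8 and was not called (1.78 ± 0.71, adjusted p = 0.0781), but became a call without EV replicate 3, or TAZ-CAMTA1 replicate 1 (adjusted p from 0.0213 to 0.0236). Kdr averaged at least 5 counts in 5 of 8 groups, and without TAZ4SA and YAP5SA its mean over the remaining libraries was 9.11 counts. Those libraries include YAP-TFE3 and TFE3, where it was also called higher. In the groups without a call its summed counts were 5 in EV, 3 in EVsub, 19 in TAZ-CAMTA1 and 13 in CAMTA1. Kdr thus passed the limit through the groups where it was high. Without EV replicate 3, which held 4 of the 5 EV counts, the fitted value was 8.43 in TAZ4SA, 7.85 in YAP5SA, 4.96 in YAP-TFE3 and 4.89 in TFE3, and without EV replicate 1 it was 6.33, 5.74, 2.85 and 2.78. The 10 endothelial markers, which do not include these receptors, summed to 5.25 to 7.49 CPM in TAZ4SA and 3.83 to 5.32 in YAP5SA. Ramp2 was the largest (mean 2.99 CPM in EV, 3.04 in TAZ4SA and 2.22 in YAP5SA). In the same order Pecam1 was at 0.07405, 0.520 and 0.543, Cdh5 at 0.01475, 0.254 and 0.380, and Emcn at 0.0295, 0.256 and 0.634. Vwf was at 0.567, 2.27 and 0.678, and Esam went the other way (0.119, 0.0293 and 0.0553). The other markers had at most 2 counts in any library. The part of these markers in the levels of Kdr was not tested. Flt4, VEGF receptor 3, had at most 1 count in any library and was not tested.

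Met, the HGF receptor (ENSMUSG00000009376, chr6:17463800-17573980, plus strand), was lower in the fusion with TAZ and in YAP5SA. It was at 223, 213 and 210.3 CPM in EV, 126, 119 and 119 in TAZ-CAMTA1 and 148, 165 and 145 in YAP5SA. Neither group overlapped EV, with log2 fold changes of -0.83 ± 0.12 (adjusted p = 2.21e-05) and -0.50 ± 0.12 (adjusted p = 0.000738). TAZ4SA, at 187, 166 and 249.9, spanned EV (-0.10 ± 0.12, adjusted p = 0.481), but was a call without TAZ4SA replicate 3 (adjusted p = 0.0174). TFE3 had the highest levels, 275, 266 and 281 CPM, above every EV library without a call (0.34 ± 0.12, adjusted p = 0.127) other than under a fit of the compared groups alone (adjusted p = 0.00659).

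Tek, the receptor of the angiopoietins (ENSMUSG00000006386, chr4:94739289-94874976, plus strand), was low in EV and lower still in TAZ4SA, YAP5SA and EVsub. Its counts were 63, 46 and 97 in EV, 3, 4 and 4 in TAZ4SA, 23, 5 and 6 in YAP5SA and 6, 11 and 5 in EVsub. The 3 lower groups did not overlap EV, and the summed counts gave a level lower in TAZ4SA by a ratio of 15.7 (exact 95% interval 8.57 to 31.9) and in EVsub by 10.3 (exact 95% interval 6.599 to 16.7). The fitted log2 fold changes were -3.91 ± 0.51 (adjusted p = 1.2e-06) in TAZ4SA, -2.32 ± 0.42 (adjusted p = 4.23e-05) in YAP5SA and -3.34 ± 0.45 (adjusted p = 2.92e-05) in EVsub. Without YAP5SA replicate 1 the value in YAP5SA was -3.30. CAMTA1 had 4, 2 and 12 counts, beside EVsub. TFE3 summed to 107 counts, lower than EV by a ratio of 2.14 (exact 95% interval 1.69 to 2.73). It was not called other than under a fit of the compared groups alone (log2 fold change -1.07, adjusted p = 0.0453). The fusions kept Tek in or near the range of EV, 2.195 to 2.91 CPM in TAZ-CAMTA1 and 1.71 to 3.11 in YAP-TFE3 against 2.196 to 4.29, with log2 fold changes of -0.30 ± 0.35 (adjusted p = 0.595) and -0.44 ± 0.36 (adjusted p = 0.472).

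Among the ligands, both tested PDGF genes were higher than in EV in TAZ4SA, YAP5SA and TAZ-CAMTA1. Pdgfa (ENSMUSG00000025856, chr5:138976014-138997370, minus strand), a ligand of Pdgfra, was at 15.96, 17.3 and 17.5 CPM in EV, 35.4, 36.95 and 40.2 in TAZ4SA and 71.1, 53.8 and 53.5 in YAP5SA. It was at 31.1, 32.2 and 31.4 in TAZ-CAMTA1 and 20.1, 19.7 and 21.1 in YAP-TFE3. All 4 groups lay above every EV library, with log2 fold changes of 1.15 ± 0.11 (adjusted p = 2.82e-08), 1.81 ± 0.11 (adjusted p = 1.38e-11), 0.90 ± 0.11 (adjusted p = 4.29e-06) and 0.26 ± 0.11 (adjusted p = 0.133), of which that in YAP-TFE3 was not called. EVsub was also higher (0.41 ± 0.11, adjusted p = 0.0118), a call lost without EV replicate 1, or EVsub replicate 2 (adjusted p from 0.0594 to 0.0736), or with all libraries under a fit of the compared groups alone (adjusted p = 0.0756). Exons of the opposite-strand gene 6330403L08Rik overlap those of Pdgfa over 813 bases. That gene was at 8.74 CPM in EV, 5.16 in TAZ4SA and 2.39 in YAP5SA, and whether counting used strand is not given in the sources used here.

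Pdgfc, the other Pdgfra ligand tested (ENSMUSG00000028019, chr3:81036416-81214040, plus strand), carried the TEAD core shown above. It was at 13.4, 22.4 and 15.5 CPM in EV, 32.7, 34.3 and 36.98 in TAZ4SA and 34.1, 31.4 and 37.3 in YAP5SA. It was at 28.6, 30.98 and 32.5 in TAZ-CAMTA1, 32.6, 33.7 and 28.2 in YAP-TFE3 and 47.5, 42.3 and 34.4 in EVsub. Every one of these libraries lay above the 3 EV libraries. The log2 fold changes were 1.02 ± 0.15 (adjusted p = 5.77e-06), 1.00 ± 0.15 (adjusted p = 3.52e-06), 0.85 ± 0.15 (adjusted p = 0.000244), 0.88 ± 0.15 (adjusted p = 0.000203) and 1.28 ± 0.15 (adjusted p = 6.95e-06) in that order. TFE3, at 16.9, 14.1 and 16.3 CPM, was not called (-0.11 ± 0.15, adjusted p = 0.826). Pdgfb, below the count limit, had counts of 0, 2 and 2 in EV and 16, 15 and 25 in TAZ4SA, a ratio of 16.7 (exact 95% interval 6.18 to 63.6), and Pdgfd summed to 9 counts in EV and 30 in TAZ4SA. Fitted without the limit, the adjusted p in TAZ4SA was 1.59e-05 for Pdgfb and 0.0270 for Pdgfd. In the same fit Pdgfd was lower than EV in TAZ-CAMTA1, where it had 0 counts (adjusted p = 0.0201).

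**Figure D4:**
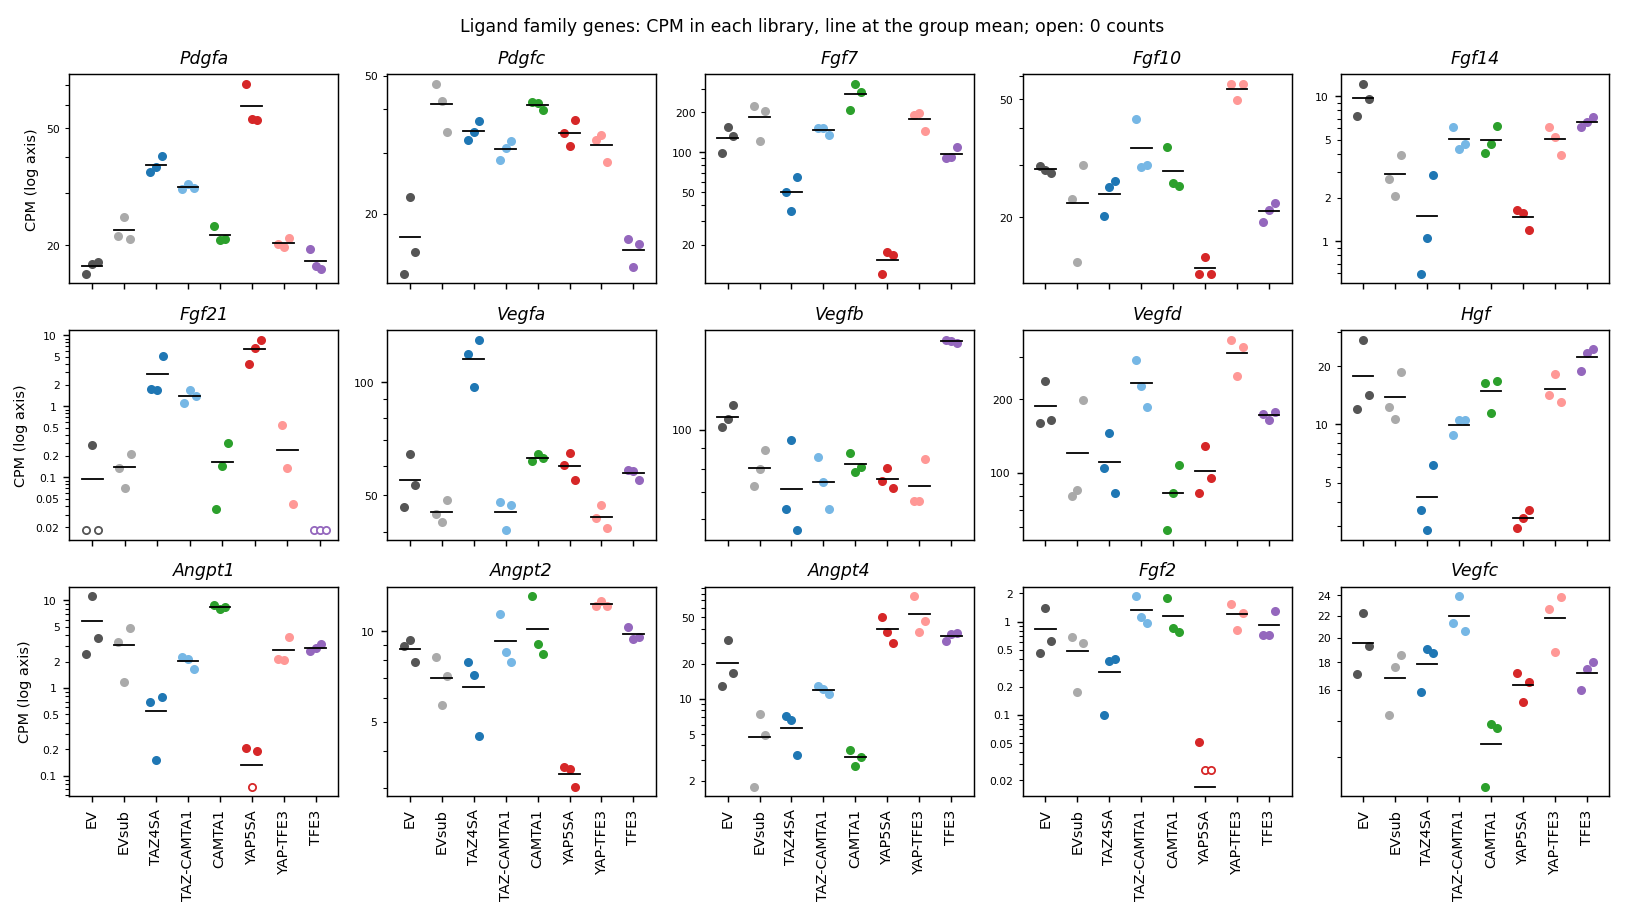
CPM of 15 genes of the ligand families in each library by group, on log axes, with lines at the group means and open points for 0 counts. Pdgfa and Pdgfc lie above EV in TAZ4SA, YAP5SA and TAZ-CAMTA1, and Fgf7, Hgf and Angpt1 below EV in TAZ4SA and YAP5SA.

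Of the 3 FGF genes above 5 CPM in every EV library (Fgf7, Fgf10 and Fgf14), all fell in YAP5SA, and Fgf7 and Fgf14 fell in TAZ4SA. Fgf7, keratinocyte growth factor (ENSMUSG00000027208, chr2:126034658-126091185, plus strand), was at 98.4, 154 and 132 CPM in EV, 50.3, 36.1 and 65.00 in TAZ4SA and 12.1, 17.5 and 16.7 in YAP5SA. The 3 ranges did not overlap, and YAP5SA was lowest of all 8 groups. Its log2 fold change was -1.34 ± 0.23 (adjusted p = 3.73e-05) in TAZ4SA and -3.06 ± 0.25 (adjusted p = 4.8e-10) in YAP5SA, the latter 8.32-fold lower. It was at 152, 152 and 135 in TAZ-CAMTA1 and 191, 199 and 145 in YAP-TFE3, with log2 fold changes of 0.19 ± 0.22 (adjusted p = 0.5899) and 0.48 ± 0.22 (adjusted p = 0.169). Neither was called, but that in YAP-TFE3 became a call under no filter on low counts (adjusted p = 0.0469).

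Fgf10 (ENSMUSG00000021732, chr13:118669791-118792115, plus strand), a related ligand that also signals through Fgfr2, separated the YAP groups. It was at 29.8, 28.9 and 28.2 CPM in EV, 12.9, 14.7 and 12.9 in YAP5SA and 56.2, 49.8 and 56.4 in YAP-TFE3, without overlap in either direction. Fgf10 fell in YAP5SA (-1.10 ± 0.20, adjusted p = 4.02e-05) and rose in YAP-TFE3 (0.90 ± 0.19, adjusted p = 0.00199). In the TAZ groups, 20.1, 25.3 and 26.4 CPM in TAZ4SA and 42.9, 29.4 and 30.1 in TAZ-CAMTA1, it was not called, with log2 fold changes of -0.27 ± 0.19 (adjusted p = 0.236) and 0.24 ± 0.19 (adjusted p = 0.414). TFE3 was at 19.2, 21.1 and 22.35 CPM, below every EV library. It was not called other than under a fit of the compared groups alone (log2 fold change -0.45, adjusted p = 0.0099).

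Fgf14 (ENSMUSG00000025551, chr14:123977907-124677127, minus strand), an intracellular FGF homologous factor and not a receptor ligand, was lower in 5 groups. It was at 7.35, 12.2 and 9.51 CPM in EV, 0.595, 1.05 and 2.86 in TAZ4SA and 1.64, 1.57 and 1.204 in YAP5SA. All TAZ, YAP and EVsub libraries lay below every EV library. So did those of TFE3 (6.12, 6.63 and 7.18 CPM), which was not called, and of CAMTA1 (4.04, 4.71 and 6.18 CPM). It fell in TAZ4SA (-2.63 ± 0.36 (adjusted p = 2.24e-06), and -3.61 without TAZ4SA replicate 3), YAP5SA (-2.70 ± 0.36, adjusted p = 7.58e-07) and EVsub (-1.75 ± 0.33, adjusted p = 0.000643). The smaller falls in TAZ-CAMTA1 (-0.93 ± 0.31, adjusted p = 0.0371) and YAP-TFE3 (-0.93 ± 0.32, adjusted p = 0.0472) were not stable. The first was lost without EV replicate 2 or 3, or TAZ-CAMTA1 replicate 2 or 3 (adjusted p from 0.0834 to 0.139), and the second without EV replicate 2 or 3, or any YAP-TFE3 replicate (adjusted p from 0.0714 to 0.169), or with all libraries under a replicate block (adjusted p = 0.0571).

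Fgf21 (ENSMUSG00000030827, chr7:45613886-45615490, minus strand), a hormone-like FGF that acts with the co-receptor beta-klotho, had almost no counts in EV. Its counts were 0, 6 and 0 in EV, 35, 23 and 115 in TAZ4SA, 28, 37 and 35 in TAZ-CAMTA1 and 78, 135 and 136 in YAP5SA. The summed counts gave ratios to EV of 34.5 (exact 95% interval 15.5 to 95.2), 15.7 (exact 95% interval 6.98 to 43.9) and 70.3 (exact 95% interval 31.96 to 193). The fitted log2 fold changes were 4.93 ± 0.80 (adjusted p = 2.9e-05), 3.90 ± 0.85 (adjusted p = 0.00227) and 6.07 ± 0.77 (adjusted p = 6.35e-07). YAP-TFE3 (11, 4 and 1 counts) was not called (1.26 ± 1.11, adjusted p = 0.521), and TFE3 had 0 counts in every library. All 6 EV counts were in replicate 2. Without it EV was at 0. Against 3 counts set for both remaining EV libraries, the ratios were 47.5 in TAZ4SA, 21.7 in TAZ-CAMTA1 and 96.8 in YAP5SA. These ratios leave out the EV library that held counts and the counting error of the other groups. They are thus no lower bound on the difference from EV. Without EV replicate 1 the fitted values were 4.34, 3.30 and 5.47, and without TAZ4SA replicate 3, which held most of the TAZ4SA counts, that of TAZ4SA was 4.19. Fgf21 averaged at least 5 counts in 4 of 8 groups. In the groups without a call its summed counts were 6 in EV, 10 in EVsub, 14 in CAMTA1, 16 in YAP-TFE3 and 0 in TFE3. Like Kdr, it passed the limit through the groups where it was high.

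Fgf2 (ENSMUSG00000037225, chr3:37348346-37410108, plus strand), basic FGF, had 54 counts in the 3 EV libraries and 1 in the 3 YAP5SA libraries (in replicate 1), lower by a ratio of 44.7 (exact 95% interval 7.69 to 1798), and its fitted log2 fold change was -5.13 ± 1.00 (adjusted p = 9.28e-05). Without YAP5SA replicate 1 that group was at 0 and the fitted value, which is then no bound, was -7.25. In TAZ4SA it had 16 counts, and the call there (-1.49 ± 0.61, adjusted p = 0.0392) was lost without EV replicate 2, or TAZ4SA replicate 1 or 2 (adjusted p from 0.0513 to 0.249), or with all libraries under a fit of the compared groups alone (adjusted p = 0.0747). Its exons overlap Nudt6 on the opposite strand, which was 3.02 CPM in EV and 0.959 in YAP5SA. The remaining members, Fgf11 and Fgf18, stayed under 0.8 CPM in every library. Fgf18 had counts of 0, 2 and 1 in EV, 13, 8 and 18 in TAZ4SA, 8, 3 and 9 in TAZ-CAMTA1, 3, 4 and 5 in YAP5SA and 8, 11 and 6 in YAP-TFE3. It averaged at least 5 counts in 3 of 8 groups and 3.86 over the libraries outside TAZ4SA, so that it was tested only because of the groups where it was high. Its summed counts in TAZ4SA gave a ratio to EV of 15.5 (exact 95% interval 4.94 to 78.6). Its calls are listed below as values only, with the counts of members also given without it. Fgf11 was called in TAZ4SA (1.37 ± 0.52, adjusted p = 0.0271), a call lost without EV replicate 1 or 3, or TAZ4SA replicate 3 (adjusted p from 0.0623 to 0.169), or with all libraries under no filter on low counts, a fit of the compared groups alone or DESeq2 (adjusted p from 0.0611 to 0.0822).

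Of the VEGF ligands, Vegfa rose in TAZ4SA and not in YAP5SA. Vegfa (ENSMUSG00000023951, chr17:46016993-46032369, minus strand), the main ligand of Kdr, was at 46.6, 64.5 and 53.3 CPM in EV, 119, 97.1 and 129 in TAZ4SA and 60.2, 64.9 and 54.8 in YAP5SA. All TAZ4SA libraries were above those of the other 7 groups, and YAP5SA overlapped EV. The log2 fold change was 1.07 ± 0.12 (adjusted p = 1.28e-07) in TAZ4SA and 0.13 ± 0.12 (adjusted p = 0.321) in YAP5SA. TAZ-CAMTA1 (40.4 to 47.97 CPM, -0.28 ± 0.12, adjusted p = 0.0985) and YAP-TFE3 (41.02 to 47.2 CPM, -0.32 ± 0.12, adjusted p = 0.0699) were not called, although they became calls, as decreases, in TAZ-CAMTA1 without EV replicate 1 (adjusted p = 0.0408) and in YAP-TFE3 without EV replicate 1 (adjusted p = 0.0275), or with all libraries under DESeq2 (adjusted p = 0.0408). Vegfa was the member called in CAMTA1, at 61.6, 64.4 and 62.6 against 44.6, 42.3 and 48.4 CPM in EVsub (0.48 ± 0.12, adjusted p = 0.0308), a call lost without any CAMTA1 replicate, or EVsub replicate 2 (adjusted p from 0.0602 to 0.172), or with all libraries under a fit of the compared groups alone (adjusted p = 0.137).

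Vegfb (ENSMUSG00000024962, chr19:6982473-6987651, minus strand), a ligand of Flt1, moved in opposite directions in TFE3 and the TAZ and YAP groups. It was at 101, 106 and 115 CPM in EV and 167, 166 and 164 in TFE3, above every other library. In TAZ4SA, TAZ-CAMTA1, YAP5SA and YAP-TFE3 it ranged from 56.2 to 94.1 CPM, below the lowest EV library. Its log2 fold change was 0.63 ± 0.15 (adjusted p = 0.0176) in TFE3, -0.60 ± 0.15 (adjusted p = 0.00146) in TAZ4SA, -0.53 ± 0.15 (adjusted p = 0.01101) in TAZ-CAMTA1, -0.51 ± 0.15 (adjusted p = 0.003600) in YAP5SA and -0.57 ± 0.15 (adjusted p = 0.008597) in YAP-TFE3. The TFE3 call was lost without EV replicate 1 or 2, or any TFE3 replicate (adjusted p from 0.0552 to 0.0775) and the TAZ-CAMTA1 call without EV replicate 3, or TAZ-CAMTA1 replicate 3 (adjusted p from 0.0542 to 0.0786). EVsub was called lower (-0.42 ± 0.15, adjusted p = 0.0429), a call lost without any EV replicate, or EVsub replicate 1 or 2 (adjusted p from 0.0649 to 0.1602), or with all libraries under a replicate block (adjusted p = 0.0539).

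Vegfd (ENSMUSG00000031380, chrX:164373378-164402650, plus strand), a ligand of Flt4 and the ligand with the highest mean per kb in EV, was at 159, 238 and 165 CPM in EV, 104, 145 and 82.4 in TAZ4SA and 82.6, 129 and 95.03 in YAP5SA. It was called lower in TAZ4SA (-0.76 ± 0.29, adjusted p = 0.0302) and YAP5SA (-0.87 ± 0.29, adjusted p = 0.01101), calls lost without EV replicate 2, or TAZ4SA replicate 1 or 3 (adjusted p from 0.0819 to 0.148) and without EV replicate 2, or YAP5SA replicate 1 (adjusted p from 0.0551 to 0.0671). In YAP-TFE3 it was at 351, 249 and 329, all above EV, and not called (0.73 ± 0.29, adjusted p = 0.0999) other than under no filter on low counts or a fit of the compared groups alone (adjusted p from 0.00448 to 0.0309). Vegfc ranged from 10.6 to 23.9 CPM over all libraries and was called in none of the 7 main comparisons with an empty vector group. Pgf, below the count limit, had at most 14 counts in a library, and fitted without the limit it was higher in TAZ4SA (log2 fold change 2.36, adjusted p = 0.0127).

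Hgf (ENSMUSG00000028864, chr5:16553495-16620152, plus strand), the ligand of Met, fell in the serine mutants. It was at 11.99, 27.3 and 14.2 CPM in EV, 3.62, 2.85 and 6.201 in TAZ4SA and 2.93, 3.29 and 3.61 in YAP5SA, with every serine mutant library below EV. The log2 fold changes were -2.04 ± 0.29 (adjusted p = 4.49e-06) and -2.44 ± 0.30 (adjusted p = 2.59e-07), or 4.12-fold and 5.44-fold lower. In TAZ-CAMTA1, at 8.82, 10.6 and 10.5, the smaller fall (-0.84 ± 0.27, adjusted p = 0.0304) was lost without EV replicate 2, or any TAZ-CAMTA1 replicate (adjusted p from 0.0696 to 0.283), and EV replicate 2 had the most Hgf of all 24 libraries. YAP-TFE3 (13.1 to 18.2 CPM) was not called (-0.23 ± 0.27, adjusted p = 0.644).

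The angiopoietins each had their own pattern. Angpt1, the ligand that activates Tek (ENSMUSG00000022309, chr15:42424723-42676977, minus strand), had counts of 58, 233 and 84 in EV, 14, 2 and 18 in TAZ4SA and 4, 0 and 3 in YAP5SA. EV replicate 2 stood far above the other EV libraries, and all serine mutant libraries were below the lowest of EV. The log2 fold changes were -3.27 ± 0.57 (adjusted p = 5.05e-05) and -5.44 ± 0.74 (adjusted p = 9.82e-07), and -2.38 and -4.55 without EV replicate 2. Without YAP5SA replicate 2, which had 0 counts, that of YAP5SA was -4.82. A fall in TAZ-CAMTA1 (-1.51 ± 0.48, adjusted p = 0.0266) was lost without EV replicate 2, or TAZ-CAMTA1 replicate 2 or 3 (adjusted p from 0.0721 to 0.345), or with all libraries under a fit of the compared groups alone (adjusted p = 0.0512). CAMTA1 libraries had 8.799, 7.95 and 8.35 CPM, all above the 3.33, 1.18 and 4.86 of EVsub, and were not called (1.43 ± 0.46, adjusted p = 0.1002) other than under no filter on low counts (adjusted p = 0.00202).

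Angpt2 (ENSMUSG00000031465, chr8:18690263-18741562, minus strand), which can block Tek signalling, was at 8.95, 9.31 and 7.88 CPM in EV and 3.54, 3.48 and 3.04 in YAP5SA, lower in every library (-1.37 ± 0.21, adjusted p = 5.1e-06). TAZ4SA was at 7.89, 7.12 and 4.49, not called (-0.43 ± 0.20, adjusted p = 0.0708), but became a call without TAZ4SA replicate 1 (adjusted p = 0.0261), or with all libraries under a limit of 10 counts in every library, a replicate block or DESeq2 (adjusted p from 0.0282 to 0.0458). YAP-TFE3 was at 12.1, 12.6 and 12.1, above EV and not called (0.50 ± 0.19, adjusted p = 0.0892) other than under a replicate block or a fit of the compared groups alone (adjusted p from 0.0273 to 0.0408).

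Angpt4 (ENSMUSG00000027460, chr2:151911210-151945337, plus strand) was lower in TAZ4SA and higher in the YAP groups than in EV. It was at 13.00, 31.8 and 16.5 CPM in EV, 7.09, 6.596 and 3.298 in TAZ4SA and 50.2, 37.8 and 30.5 in YAP5SA. In YAP-TFE3 it was at 75.8, 37.2 and 46.7 and in EVsub at 1.78, 7.37 and 4.95. TAZ4SA and EVsub lay below EV and YAP-TFE3 above it, while YAP5SA overlapped EV replicate 2. TFE3, which carries no YAP, was at 31.5, 36.2 and 36.9 CPM and also overlapped EV replicate 2. It was not called other than under no filter on low counts (log2 fold change 0.78, adjusted p = 0.0436). Angpt4 fell in TAZ4SA (-1.87 ± 0.38, adjusted p = 0.000262) and EVsub (-2.10 ± 0.38, adjusted p = 0.000452). The rises in YAP-TFE3 (1.38 ± 0.35, adjusted p = 0.00821) and YAP5SA (0.95 ± 0.35, adjusted p = 0.0187) depended on single libraries. The first was lost without EV replicate 1 or 3, or YAP-TFE3 replicate 1 (adjusted p from 0.0534 to 0.1001), and the second without EV replicate 1 or 3, or YAP5SA replicate 1 (adjusted p from 0.07498 to 0.102).

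Each fusion was next compared with the serine mutant of its TAZ or YAP partner, which is not the unmutated partner itself. If TAZ-CAMTA1 was collected before confluence, cell density and the construct cannot be told apart in its comparison with TAZ4SA, nor in those with YAP-TFE3 or between the pairs. In TAZ-CAMTA1, 15 members were higher than in TAZ4SA (against 26.6% of all genes, 55.6% of members) and 6 lower (against 28.1%). Without Fgf18, 5 of 26 were lower. In YAP-TFE3, 15 were higher than in YAP5SA (against 36.4%, 55.6% of members) and 6 lower (against 34.5%). The median of the members was 0.52 in the TAZ pair and 0.71 in the YAP pair, against 0.00 and 0.05 for all genes. Tek was 3.62 ± 0.51 (adjusted p = 5.28e-06) higher on the log2 scale in TAZ-CAMTA1, and Pdgfra 1.24 ± 0.28 (adjusted p = 0.000949), Fgfr1 1.34 ± 0.15 (adjusted p = 2.72e-07) and Fgf7 1.53 ± 0.23 (adjusted p = 1.04e-05). Kdr (-5.14 ± 0.39, adjusted p = 1.72e-09), Flt1 (-2.28 ± 0.13, adjusted p = 2.81e-11) and Vegfa (-1.35 ± 0.12, adjusted p = 1.17e-08) were lower. In the YAP pair, Fgf7 (3.53 ± 0.25, adjusted p = 1.03e-10), Angpt1 (4.35 ± 0.78 (adjusted p = 3.82e-05), and 3.72 without YAP5SA replicate 2), Pdgfra (2.46 ± 0.30, adjusted p = 1.87e-07), Hgf (2.21 ± 0.30, adjusted p = 1.05e-06) and Fgf10 (2.00 ± 0.20, adjusted p = 1.41e-08) were higher in YAP-TFE3, and Kdr (-2.89 ± 0.34, adjusted p = 1.16e-07), Flt1 (-1.63 ± 0.12, adjusted p = 2.6e-10) and Pdgfa (-1.55 ± 0.11, adjusted p = 1.33e-10) were lower.

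A test of the difference between the TAZ pair and the YAP pair called 15 members (55.6%), against 31.4% of all genes in either direction. Kdr, Fgf21 and Fgf18 were among the 15. Without Fgf18, it called 4 of 26 with a difference above 0 and 10 with a difference below 0. Fgf7 was higher by 1.53 on the log2 scale in TAZ-CAMTA1 than in TAZ4SA and by 3.53 in YAP-TFE3 than in YAP5SA, a difference of -2.00 (adjusted p = 0.000109). Fgfr2 was higher by 1.24 in the TAZ pair and by 0.21 in the YAP pair, a difference of 1.03 (adjusted p = 0.00447). Pdgfa differed by -0.25 in the TAZ pair and -1.55 in the YAP pair, a difference of 1.30 (adjusted p = 4.09e-06).

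**Figure D5:**
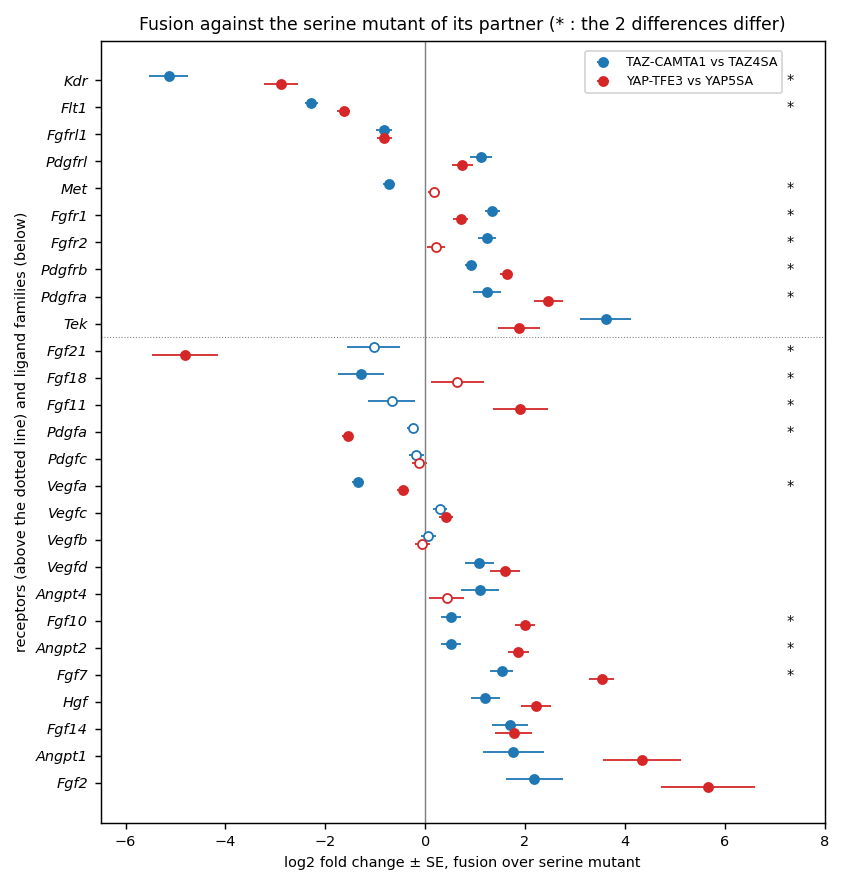
Log2 difference of each fusion from the serine mutant of its partner (x axis) for the 27 members (rows), TAZ pair in blue and YAP pair in red, with SE bars, filled where called. A star marks the 15 members in which the pairs differed. Kdr and Flt1 are below 0 in both pairs, and Pdgfra and Fgf7 above 0 in both, with higher values for the YAP pair.

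The fusions were also compared with each other. In TAZ-CAMTA1, 2 members were higher than in YAP-TFE3 (7.41%, against 5.32% of all genes) and 4 lower (14.8%, against 6.32%). Pdgfa (0.64 ± 0.11, adjusted p = 0.000491) and Fgf21 (2.63 ± 0.71, adjusted p = 0.0191) were higher in TAZ-CAMTA1, and Angpt4 (-2.15 ± 0.36, adjusted p = 0.000327), Kdr (-1.66 ± 0.45, adjusted p = 0.01803), Fgf10 (-0.66 ± 0.19, adjusted p = 0.0253) and Met (-0.52 ± 0.12, adjusted p = 0.00586) were lower. Calls were lost for Fgf10 without TAZ-CAMTA1 replicate 2 or 3, or YAP-TFE3 replicate 1 or 3 (adjusted p from 0.07396 to 0.139), for Fgf21 without TAZ-CAMTA1 replicate 2 or 3, or YAP-TFE3 replicate 2 or 3 (adjusted p from 0.05099 to 0.0903) and for Kdr without TAZ-CAMTA1 replicate 1, or YAP-TFE3 replicate 1 (adjusted p from 0.0716 to 0.0852). Without YAP-TFE3 replicate 1 the value of Fgf21 was 3.84. Between the serine mutants, 11 members were higher in TAZ4SA than in YAP5SA (40.7%, against 22.8% of all genes) and 5 lower (18.5%, against 19.6%). Without Fgf18, 10 of 26 were higher. Fgf7 (1.72 ± 0.24, adjusted p = 1.26e-05), Pdgfra (1.17 ± 0.29, adjusted p = 0.00247), Vegfa (0.94 ± 0.12, adjusted p = 3.56e-06) and Angpt2 (0.94 ± 0.21, adjusted p = 0.00145) were higher in TAZ4SA. Angpt4 (-2.82 ± 0.39, adjusted p = 1.02e-05), Fgfr2 (-1.34 ± 0.19, adjusted p = 1.21e-05) and Pdgfa (-0.66 ± 0.11, adjusted p = 7.84e-05) were lower.

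Other parts of these pathways were described by 2 lists. The co-receptors and ligand modulators hold neuropilins, heparan sulfate carriers and the enzymes that build or trim heparan sulfate, which FGFs and VEGFs need for receptor binding, and 27 of 36 passed the count limit. The shares of all genes called are those given above for each comparison. In TAZ-CAMTA1, 7 were higher and 3 lower than in EV (median log2 fold change 0.03), and in YAP-TFE3 9 and 3 (0.23). In TAZ4SA 8 were higher and 12 lower (-0.14), and in YAP5SA 8 and 14 (-0.58). In TFE3 0 were higher and 1 was lower, in CAMTA1 1 and 1, and in EVsub 4 and 7.

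In the fusions, the heparan sulfate proteoglycans Hspg2 (perlecan) and Gpc6 (a glypican) led this list in TAZ-CAMTA1. Hspg2 was at 1012 ± 287 against 378 ± 33.6 CPM in EV (log2 fold change 1.42 ± 0.20, adjusted p = 2.06e-05), with ± as SD for levels. Gpc6 was at 27.9 ± 3.48 against 9.73 ± 2.16 CPM in EV (log2 fold change 1.52 ± 0.20, adjusted p = 7e-06). The syndecan Sdc3 was lower in TAZ-CAMTA1, at 31.7 ± 6.02 against 68.5 ± 8.104 CPM in EV (log2 fold change -1.11 ± 0.16, adjusted p = 2.55e-05), as was the FGF receptor partner Flrt2, at 15.5 ± 0.919 against 26.8 ± 4.89 CPM in EV (log2 fold change -0.79 ± 0.24, adjusted p = 0.0214). In YAP-TFE3 the FGF-binding protein Fgfbp3 was at 5.61 ± 1.53 against 1.25 ± 0.306 CPM in EV (log2 fold change 2.17 ± 0.28, adjusted p = 1.14e-05) and the sulfotransferase Hs6st2 at 46.9 ± 12.4 against 15.01 ± 8.53 CPM in EV (log2 fold change 1.65 ± 0.35, adjusted p = 0.00176). Plat, a protease that can activate HGF and PDGF-C, was lower at 126 ± 21.9 against 214 ± 15.3 CPM in EV (log2 fold change -0.77 ± 0.20, adjusted p = 0.00894), as was Sdc3 at 43.8 ± 4.404 against 68.5 ± 8.104 CPM in EV (log2 fold change -0.65 ± 0.16, adjusted p = 0.006396).

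The receptor signal relay list, from adaptors to RAS-MAPK and PI3K, had all 38 genes tested and medians near those of all genes. In TAZ-CAMTA1 3 were higher and 6 lower (median 0.01), in YAP-TFE3 3 and 3 (0.04), in TAZ4SA 15 and 13 (0.03) and in YAP5SA 13 and 15 (-0.05). EVsub had 1 higher and 10 lower than EV. In TFE3 edgeR called 0 (1 at an unadjusted p under 0.05, 0 by DESeq2) and in CAMTA1 0 (8 and 1). In TAZ-CAMTA1 the RAS exchange factor Sos1 was at 105 ± 10.5 against 70.01 ± 8.699 CPM in EV (log2 fold change 0.58 ± 0.14, adjusted p = 0.00343) and the adaptor Shc1 at 228 ± 8.39 against 362 ± 60.9 CPM in EV (log2 fold change -0.67 ± 0.14, adjusted p = 0.00168). In the same group the phosphatase Ptpn11 (SHP2) was at 318 ± 19.9 against 246 ± 8.85 CPM in EV (log2 fold change 0.37 ± 0.11, adjusted p = 0.0227) and the ubiquitin ligase Cblb, which ends receptor signalling, at 29.1 ± 2.603 against 44.9 ± 5.82 CPM in EV (log2 fold change -0.62 ± 0.13, adjusted p = 0.00177). In YAP-TFE3 Hras was at 48.7 ± 9.68 against 30.4 ± 1.51 CPM in EV (log2 fold change 0.68 ± 0.17, adjusted p = 0.00842) and Shc1 at 236 ± 34.4 against 362 ± 60.9 CPM in EV (log2 fold change -0.62 ± 0.14, adjusted p = 0.00400). Ptpn11 there was at 322 ± 34.9 against 246 ± 8.85 CPM in EV (log2 fold change 0.39 ± 0.11, adjusted p = 0.0221) and Cblb at 33.2 ± 2.04 against 44.9 ± 5.82 CPM in EV (log2 fold change -0.43 ± 0.13, adjusted p = 0.02905).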

How the data were processed

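NIH 3T3 RNA was sequenced as polyA-enriched, stranded TruSeq libraries with 75 bp paired-end reads. The authors deposited raw counts per gene for each library; per the labels and methods, reads were processed with bcbio-nextgen 1.0.8 and aligned with Hisat2 to mm10 with Ensembl 97, and the methods also name Salmon with tximport for gene-level counts; which of these routes gave the deposited whole-number counts, and the strand setting, is not given in the sources used here. Counts of 39017 gene identifiers were read, and 37693 identifiers matched GENCODE M21, which gave symbols, coordinates on GRCm38 and exon lengths. The 14361 genes whose counts averaged 5 or more were fitted with edgeR 4.0.16 under R 4.3.3 (quasi-likelihood, TMM scaling), in 1 fit over all 8 groups with 12 contrasts. Groups came from titles. Values in every library were given for members averaging at least 50 counts and called with a log2 fold change past 1 in size against an empty vector; Fgf2, Fgf21, Kdr, Tek and the other named members were added after their values were seen. The members and lists were chosen with earlier results of these data known. Alternatives were DESeq2 1.42.0, other filters and scalings, a fit of only the groups compared, a replicate block and leaving out each library, and EVsub as the control of TAZ-CAMTA1, added after seeing the data. Depth, 16471181 to 30132586 counts a library, limits members with few counts, and counting intervals are exact 95% intervals.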

Additional observations from a re-analysis of the deposited data

Results flagged for a closer look

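The effect of the fusion relative to the serine mutant differed between the TAZ pair and the YAP pair in 15 members by the interaction contrast of the same edgeR fit. In each statement below the log2 difference of TAZ-CAMTA1 from TAZ4SA is followed by that of YAP-TFE3 from YAP5SA, and then by the difference between both with its SE.

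Among receptors, the values were -5.14 and -2.89 for Kdr, a difference of -2.25 ± 0.54 (adjusted p = 0.00301). They were -2.28 and -1.63 for Flt1, a difference of -0.64 ± 0.17 (adjusted p = 0.00692). For the PDGF receptors they were 1.24 and 2.46 for Pdgfra, a difference of -1.22 ± 0.40 (adjusted p = 0.0231), and 0.92 and 1.63 for Pdgfrb, a difference of -0.72 ± 0.17 (adjusted p = 0.00358). For the FGF receptors they were 1.34 and 0.71 for Fgfr1, a difference of 0.63 ± 0.21 (adjusted p = 0.0244), and 1.24 and 0.21 for Fgfr2, a difference of 1.03 ± 0.26 (adjusted p = 0.00447). They were -0.73 and 0.18 for Met, a difference of -0.91 ± 0.17 (adjusted p = 0.000329). Met and Fgfr2 were called in the TAZ pair and not in the YAP pair, and Pdgfra and Pdgfrb in both pairs. The call for Pdgfra was lost without TAZ-CAMTA1 replicate 2, or YAP5SA replicate 1 (adjusted p from 0.0592 to 0.0698) and that for Fgfr1 without TAZ4SA replicate 3, TAZ-CAMTA1 replicate 1, YAP5SA replicate 2, or YAP-TFE3 replicate 1 or 2 (adjusted p from 0.0503 to 0.0665), or with all libraries under a fit of the compared groups alone (adjusted p = 0.0513).

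Among the ligand families, the values were 1.53 and 3.53 for Fgf7, a difference of -2.00 ± 0.33 (adjusted p = 0.000109). They were 0.51 and 2.00 for Fgf10, a difference of -1.49 ± 0.28 (adjusted p = 0.000368). They were 0.52 and 1.87 for Angpt2, a difference of -1.34 ± 0.29 (adjusted p = 0.001296). Those of the VEGF and PDGF ligands were -1.35 and -0.45 for Vegfa, a difference of -0.90 ± 0.17 (adjusted p = 0.000357), and -0.25 and -1.55 for Pdgfa, a difference of 1.30 ± 0.16 (adjusted p = 4.09e-06). Those of members with few counts were -1.04 and -4.80 for Fgf21, a difference of 3.77 ± 0.87 (adjusted p = 0.00271), -0.67 and 1.91 for Fgf11, a difference of -2.58 ± 0.73 (adjusted p = 0.0104), and -1.28 and 0.64 for Fgf18, a difference of -1.92 ± 0.70 (adjusted p = 0.0395). Fgf18 passed the count limit only through the groups where it was high, and its call was lost without TAZ4SA replicate 1 or 3, TAZ-CAMTA1 replicate 2, YAP5SA replicate 1 or 2, or YAP-TFE3 replicate 1 or 2 (adjusted p from 0.05101 to 0.0948), or with all libraries under no filter on low counts or DESeq2 (adjusted p from 0.0866 to 0.114). Fgf7, Fgf10 and Angpt2 were higher in each fusion than in the serine mutant, by more in the YAP pair. In the TAZ pair the call for Fgf10 was lost without TAZ4SA replicate 1, or TAZ-CAMTA1 replicate 1 (adjusted p from 0.135 to 0.207), or with all libraries under a fit of the compared groups alone (adjusted p = 0.0606) and that for Angpt2 without TAZ4SA replicate 3, or TAZ-CAMTA1 replicate 1 (adjusted p from 0.183 to 0.185), or with all libraries under a fit of the compared groups alone (adjusted p = 0.125). Without YAP-TFE3 replicate 1 the difference of Fgf21 was 4.98, and without TAZ4SA replicate 3 it was 4.52.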

How the results depend on the processing

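Counts of members called moved by over 1.5 times in a minority of alternatives. When the fit held the compared groups alone, 8 members were called in TFE3 against 3 (4 higher and 4 lower) and 0 in CAMTA1 against 1. With no filter on low counts 4 were called in CAMTA1 (Angpt1, Fgf7 and Pdgfra besides Vegfa). Calls over all genes moved the same way. With the compared groups alone they were 914 higher and 598 lower in TFE3, against 339 and 146, and 21 and 1 in CAMTA1, against 185 and 128. With no filter CAMTA1 had 380 and 294. Leaving out each library in turn gave 7 to 13 calls in TAZ-CAMTA1, 6 to 10 in YAP-TFE3, 1 to 2 in TFE3 and 0 to 2 in CAMTA1, each against its empty vector. Calls over all genes changed with it, as in TAZ-CAMTA1 without replicate 3 (1339 higher and 706 lower, against 1799 and 1289). In the other comparisons it gave 20 to 21 in TAZ4SA, 21 to 23 in YAP5SA, 9 to 14 in EVsub, 18 to 21 between TAZ-CAMTA1 and TAZ4SA, 20 to 21 between YAP-TFE3 and YAP5SA, 4 to 5 between the fusions, 12 to 19 between the serine mutants and 13 to 18 in the contrast of the pairs. Of 3960 values of single members under these settings (27 members in 12 comparisons), 3641 kept direction and call, 104 changed sign without a call in either, 142 lost and 73 gained the call, and no call reversed. The cause was not tested. This tally leaves out EVsub as the control of TAZ-CAMTA1, under which the call of Pdgfc reversed. With EVsub in place of EV as the control of TAZ-CAMTA1, 13 members were called as against EV, of which 4 were shared in direction, and the log2 fold change changed sign for Angpt4 (1.33), Fgf14 (0.81), Fgfr1 (0.25), Fgfr2 (0.028), Pdgfc (-0.43), Pdgfrb (0.033) and Tek (3.04). Same-numbered libraries did not deviate together in all pairs of any comparison, so the numbers were not treated as pairing. With the replicate block, 9 members were called in YAP-TFE3 against 10, 2 in TFE3 against 3, 9 in EVsub against 10 and 23 in TAZ4SA against 22, with equal counts elsewhere. Members with few counts (Kdr, Fgf21, Fgf18, Fgf11, Fgf2 and Tek) have the widest errors.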
